A study of Mus musculus with 5 samples.

Results

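The contacts described here join the neighbouring genes En2 and Cnpy1 with the regulatory domain of Shh on mouse chromosome 5. They were defined by position and not by their reads, though earlier results of these data were known. One HindIII fragment had its midpoint in chr5:28485087-28597086 (mm9), the 112-kb interval that holds En2 and Cnpy1, and the other had its midpoint in chr5:28765087-29689086, the 924-kb domain that runs from Shh through its enhancers into Lmbr1. This gave 2755 of the 33306 primer pairs of the series, and 132 of the 1887 pairs of 28-kb windows into which the Shh region was divided. The interval held 29 fragments (15 with a forward and 14 with a reverse primer), the domain held 95 of each kind, and every interval fragment was paired with the 95 domain fragments of the opposite kind. The 168 kb between interval and domain hold Rbm33. The fragments of a pair lay 176 to 1200 kb apart, with a median of 692 kb.

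In 5C, chromatin is fixed, cut with HindIII and religated, and each read joins a forward primer of one fragment to a reverse primer of another. All material came from unmodified, untreated CD1 mouse embryos at E11.5. Limb was whole fore- and hindlimb buds in 2 biological replicates (limb 1 and limb 2), each from pooled embryos, body was 1 library of embryonic bodies (multiple tissues), and head was 1 sample sequenced as 2 technical libraries, whose reads were summed. Each sample was a mixture of cell types, the head label names neural and craniofacial tissue without giving the share of midbrain and hindbrain, and 5C measures no expression by which a label could be checked. The libraries held 675954 reads for limb 1, 1714491 for limb 2, 1056071 for body and 1979743 for head, the latter from 1048682 and 931061. Where 4 values follow each other below, their order is limb 1, limb 2, body and head.

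En2 encodes a homeodomain transcription factor and is a classical marker of the midbrain-hindbrain boundary. Cnpy1 belongs to the canopy family, and its zebrafish counterpart acts in FGF signalling at the same boundary. Shh encodes a secreted signal that patterns the limb bud, the floor plate and the brain, and is driven by enhancers scattered over a gene desert and the introns of a neighbouring gene: SFPE1 in the floor plate, SBE2, SBE3 and SBE4 in the brain, and the ZRS, within Lmbr1, in the limb bud. Genes can contact one another freely inside a topological domain and less so across its borders. The question here was whether 2 genes used in the midbrain and hindbrain met the enhancers of their neighbour Shh, and whether they did so more or less in head.

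In the annotation of this build En2 (ENSMUSG00000039095.7) lies on the plus strand at chr5:28492236-28500152, and Cnpy1 (ENSMUSG00000044681.11) on the minus strand at chr5:28527359-28572332. Windows were numbered along the region from 1 to 61. En2 lies in window 7, Cnpy1 spans windows 8 to 10, and the Shh domain takes windows 17 to 49. Shh itself (ENSMUSG00000002633.3, minus strand, chr5:28783355-28793641) lies in windows 17 and 18. Enhancer coordinates were not in the files used, so the windows of SFPE1 (18), SBE4 (29), SBE2 (32), SBE3 (33) and the ZRS (48) were set from their place on the map of the locus.

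Ligation in 5C happens at HindIII sites, so the last 50 bases of 5 fragments are shown on the plus strand of mm9, ending in the site, which is in capitals. The first 3 fragments hold the first exons of En2, Cnpy1 and Shh, and the other 2 form the most-read pair of the 2755. The ends shown lie within En2 past its start for fragment 47, upstream of the gene for Cnpy1, and just upstream of the gene for Shh. The Shh end is inside an exon of a long noncoding RNA of the opposite strand. The Cnpy1 end begins at chr5:28576253, whereas Cnpy1 itself starts at chr5:28572332 on the minus strand.
En2 first-exon fragment 47, chr5:28496533-28496582: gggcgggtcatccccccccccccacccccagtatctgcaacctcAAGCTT
Cnpy1 first-exon fragment 77, chr5:28576253-28576302: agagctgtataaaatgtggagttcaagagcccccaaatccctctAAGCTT
Shh first-exon fragment 147, chr5:28793663-28793712: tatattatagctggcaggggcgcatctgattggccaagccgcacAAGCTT
Cnpy1 intron, fragment 69, chr5:28548311-28548360: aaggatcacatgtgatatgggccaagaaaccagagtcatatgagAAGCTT
Gene desert, fragment 361, chr5:29436107-29436156: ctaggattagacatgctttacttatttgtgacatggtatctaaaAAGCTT
The En2 end was 68% G and C, the Cnpy1 first-exon end 44%, the Shh end 52%, and the ends of fragments 69 and 361 were 42% and 32%.

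Among the primers of the En2/Cnpy1 interval, 3 were read in some samples and not in others, which touches every comparison below. Fragment 47, the only primered fragment that overlaps En2, had 753 reads with all partners in limb 1 and 773 in body, but 12 in limb 2 and 0 in head. Fragment 50, at chr5:28506236-28509301 just beyond En2, had 181, 0, 256 and 0 reads in limb 1, limb 2, body and head. Fragment 68, at chr5:28547549-28547729 in a Cnpy1 intron, had 0 reads in limb 1 and in body, 7138 in limb 2 and 6899 in head (3988 and 2911 in its 2 libraries). Limb 1 was thus like body, and limb 2 like head. Of the 354 primers of the Shh region, 4 changed in their share of reads by over 50-fold between samples (with at least 100 reads in 1 sample), and 3 of these 4 were the primers just named. They gave 285 of the 2755 pairs, and main results are given without them too. The contacts of the En2 first-exon fragment thus rest on a primer that was unread in head and all but unread in limb 2.

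En2 and Cnpy1 met the Shh domain at a low level, lower in body than elsewhere. Contacts are given as interaction frequency, the reads of a primer pair per 1000000 reads of its library, averaged over pairs with unread pairs as 0. The mean was 6.78 in limb 1, 7.18 in limb 2 (limb 6.98 ± 0.284, SD, n = 2), 3.88 in body, 7.27 in head, with 6.58 and 8.05 in the head libraries. Both limb replicates fell between the 2 head libraries. The share of a library's reads was 1.87%, 1.98%, 1.07% and 2.00% in limb 1, limb 2, body and head, from 12619, 33904, 11293 and 39657 reads. Body was lowest, with a 95% Wilson interval of 1.05% to 1.09%, which covers counting error only. The body was also lowest for the other windows 3′ of Shh with the domain, at 9.87, 10.7, 6.53 and 10.9, and for Nom1 and Mnx1 with the domain, at 6.81, 7.14, 4.03 and 8.33, so its low value was not limited to En2 and Cnpy1. Without the 4 changing primers the mean interaction frequency was 7.51, 7.76, 4.31 and 7.88 in the same order.

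Most of these pairs were read rarely. No read was seen for 58.7% of them in limb 1, 50.8% in limb 2, 43.2% in body and 53.9% in head. Body had the lowest mean and also the fewest unread pairs. Among all 33306 pairs of the series the unread share was 43.8%, 37.5%, 29.5% and 37.2% in the same order. Body was the lowest there as well, so its few unread pairs were not limited to En2 and Cnpy1. Of all reads of the 29 fragments within the Shh region, 21.7%, 21.6%, 11.8% and 22.1% were with the Shh domain, so body was again the sample that stood apart.

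Because contact depends on distance, each window pair was divided by the average over every window pair of the region that lay equally far apart. The dependence was not a steady fall: members 400 to 600 kb apart had an interaction frequency of 5.17, 5.89, 3.08 and 4.55, and those 1000 to 1200 kb apart 8.58, 9.02, 4.503 and 9.60, higher in every sample. Over all pairs of the region it fell from 20.8, 15.3, 7.18 and 18.5 to 12.2, 10.98, 5.47 and 12.7 between these bands, with lower values in between in limb and head. This observed over expected was similar in all tissues. It was 0.510 in limb 1, 0.560 in limb 2 (limb 0.535 ± 0.0356, SD, n = 2), 0.521 in body, 0.504 in head, and 0.506 and 0.502 in the head libraries. Head was the lowest of the samples, and body lay between the limb replicates. Head differed from the mean of limb and body (0.530 ± 0.0264, SD, n = 3) by -0.026, with an exact permutation p of 0.5 (two-sided), where 1 sample against 3 cannot give less than 0.25. Between samples with the same pattern of read and unread primers, head was at 0.504 against 0.560 in limb 2, and body at 0.521 against 0.510 in limb 1, with 1 sample each. Without the 4 changing primers the values were 0.559, 0.599, 0.565 and 0.537 in the same order.

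Of the 132 window pairs, 100 were below the expected level in all 4 samples and 3 were above it in all 4. At separations up to 896 kb this level includes the pairs within the Shh domain. Sample by sample, 10.6%, 10.6%, 8.33% and 11.4% of the 132 were above it, against 34.7%, 36.4%, 36.9% and 35.9% of all 1887 window pairs. The median observed over expected of the 132 was 0.543, 0.519, 0.467 and 0.452 in limb 1, limb 2, body and head. Over all 1887 window pairs of the region it was 0.788, 0.799, 0.802 and 0.812. Single window pairs were noisy. Over the 132, Spearman's rank correlation of the interaction frequency, not divided by expectation, was 0.50 between the limb replicates. Between the head libraries, which share primers and depth, it was 0.39. The order of single window pairs was therefore no more alike between repeats of a tissue than between tissues, where it ran from 0.45 to 0.59 among the limb, body and head samples.

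**Figure D1:**
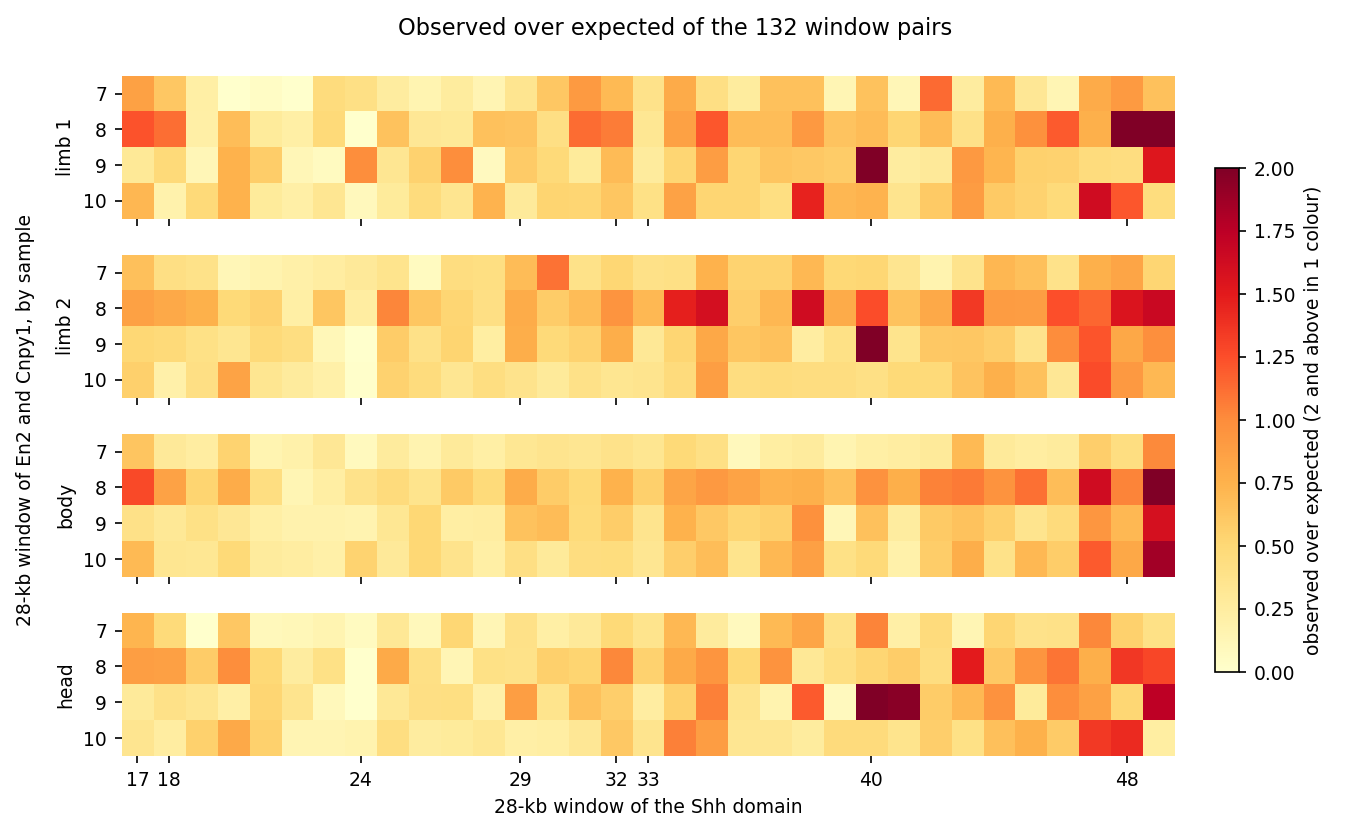
Observed over expected of each of the 132 window pairs, with the 4 En2/Cnpy1 windows as rows, the 33 Shh domain windows as columns and 1 panel per sample (2 and above in 1 colour). Most pairs lie below 1 in every sample, and the darker cells gather at windows 47 to 49 and, in limb and head, at window 9 with window 40.

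Along the Shh domain the 3 windows of highest mean interaction frequency over the 4 samples were 17, which holds most of Shh, 40, in the gene desert, and 49, in Lmbr1. Window 17 was at 15.3, 13.9, 12.3 and 11.6, the highest of the 33 windows in both limb samples but not in body or head. Against expectation it was at 0.729, 0.632, 0.733 and 0.526, below 1 in each. Window 40 was at 11.6, 12.7, 4.16 and 19.3, the highest of all in head, and this level came from a single primer pair described below. In the gene desert, windows 22 to 28 were low, with a mean interaction frequency of 4.96, 5.85, 2.83 and 4.40. Their highest observed over expected in any sample was 0.62.

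At the far end, windows 47 to 49, inside Lmbr1, the level rose again. Lmbr1 is the broadly expressed gene whose intron holds the ZRS. The mean interaction frequency over these 3 windows was 11.6, 10.99, 6.02 and 11.1. The observed over expected was 0.854, 1.11, 1.06 and 0.960 at window 47, 0.953, 1.01, 0.751 and 0.909 at the ZRS window, 48, and 0.972, 0.876, 2.20 and 0.732 at window 49. No window had all samples above 1 by this measure, and only limb 2 reached 1 at the ZRS. With 8 isolated contacts left out (defined below), window 47 had 1.13, 1.21, 1.07 and 1.16, the ZRS window 1.26, 1.11, 0.753 and 1.10, and window 49 had 1.36, 1.11, 2.21 and 1.01. In this setting all samples were above 1 at windows 47 and 49, and all but body at the ZRS window. Window 49 rests on 15 primer pairs, with 1.69 and 0.211 in the 2 head libraries. The expected value at these long separations comes from only 19 to 24 window pairs each, the members included. None of these lies within the Shh domain, where pairs are at most 896 kb apart, whereas expected values at shorter separations include such pairs.

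The rise at the Lmbr1 end was also seen from the genes and intervals around En2 and Cnpy1. The other 12 windows on the same side of Shh, 1 to 6 and 11 to 16, had their highest observed over expected in the domain at windows 48, 47 and 49, with means over the 4 samples of 1.63, 1.57 and 1.51. Over the 33 domain windows the 2 profiles had a Spearman correlation of 0.755, 0.802, 0.884 and 0.583 in limb 1, limb 2, body and head, as a description, since both profiles share the domain's primers and the libraries. With each primer's total balanced, En2 and Cnpy1 were above 1 in all 4 samples at window 47 (1.21, 1.38, 1.29 and 1.35) and at the ZRS window (1.21, 1.23, 1.03 and 1.16), but not at window 49, where limb 2 was at 0.00429 and head at 0.883.

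**Figure D2:**
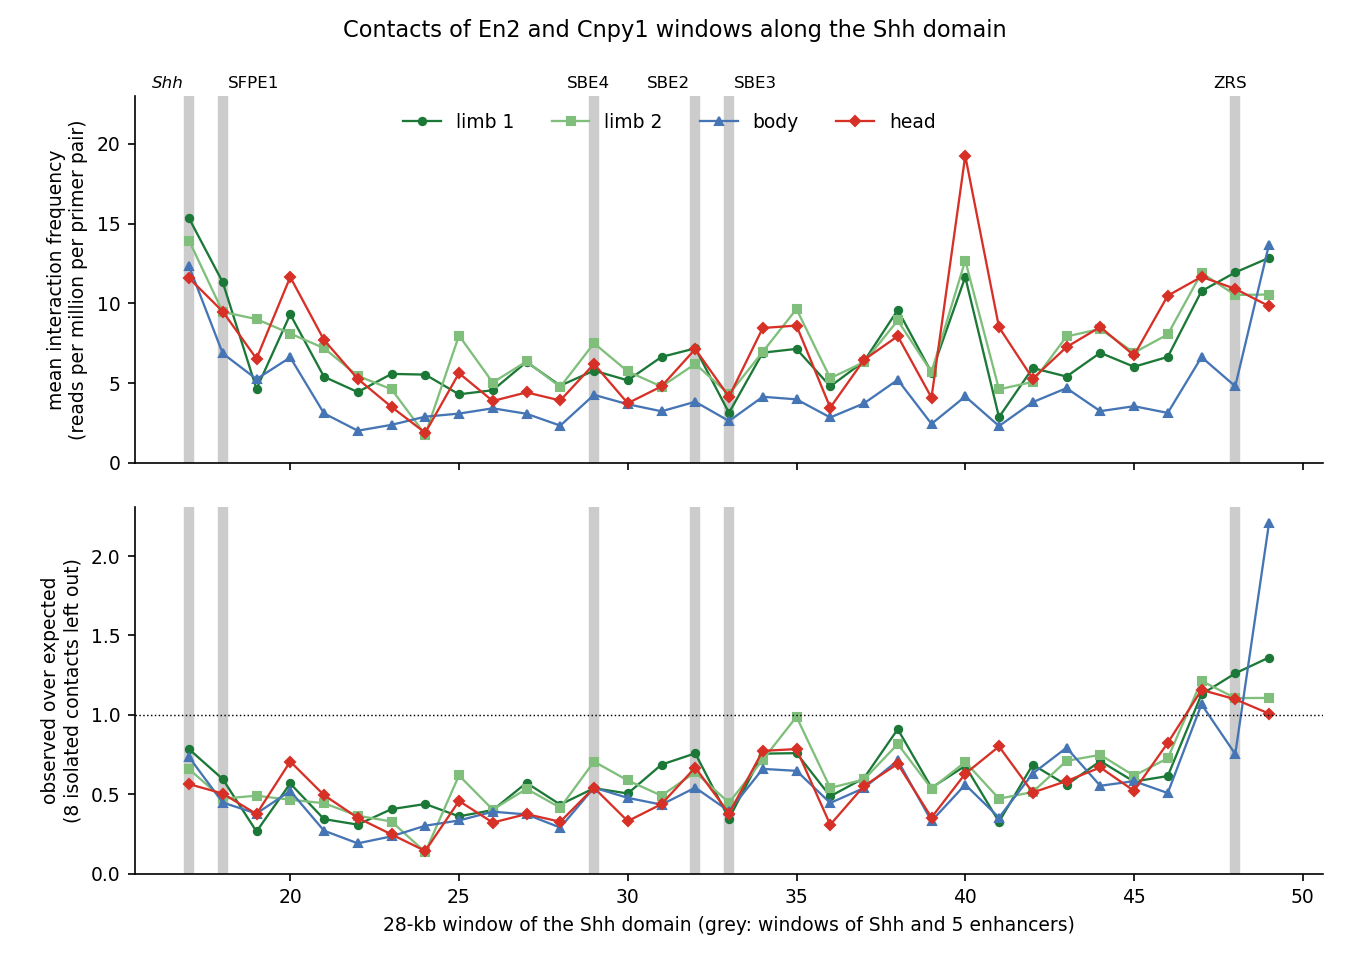
Mean interaction frequency (top) and observed over expected with the 8 isolated contacts left out (bottom) of the En2/Cnpy1 windows with each 28-kb window of the Shh domain, 1 line per sample, with the windows of Shh and the 5 enhancers in grey. All samples are high at window 17 and, but for body at the ZRS window, above 1 at windows 47 to 49, and the peak at window 40 in the top panel is absent from the bottom one.

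The enhancer windows are given with isolated contacts included, as in all values where their omission is not stated. The interaction frequency with the window of SBE4, a brain enhancer, was 5.78, 7.50, 4.26 and 6.20 in limb 1, limb 2, body and head, or 0.422, 0.605, 0.539 and 0.408 against expectation. Head was the lowest of the 4 here, close to limb 1, but without isolated contacts the order changed, at 0.538, 0.706, 0.541 and 0.541. The window of SBE2, also a brain enhancer, had 7.18, 6.20, 3.83 and 7.13, or 0.757, 0.638, 0.541 and 0.668 against expectation. Its ratio to the mean of the domain windows within 2 windows of it that hold no named element (30, 31 and 34) was 1.17, 1.07, 1.03 and 1.30, although window 34 alone was higher in limb 2, body and head.

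The next window, that of the brain enhancer SBE3, was lower, at 3.13, 4.30, 2.62 and 4.14, or 0.347, 0.446, 0.393 and 0.378 against expectation. Its ratio to the mean of such windows around it (31, 34 and 35) was 0.473, 0.610, 0.678 and 0.569. The same kind of ratio was 0.850, 1.27, 1.37 and 1.25 for SBE4 and 1.41, 0.960, 0.995 and 0.897 for SFPE1. For the ZRS it was 1.24, 1.14, 0.598 and 1.14. These values of SBE2 and SBE3 were the same without isolated contacts. The other 12 windows on the same side of Shh showed the same order. Their observed over expected was 0.890, 0.938, 0.886 and 0.909 at the SBE2 window, and 0.460, 0.414, 0.501 and 0.565 at the SBE3 window. From En2 and Cnpy1 the gap between SBE2 and SBE3 depended on how primers were treated. As means over the 4 samples their observed over expected was 0.651 and 0.391, but 0.534 and 0.535 once primer totals were balanced. The window of SFPE1, the floor plate enhancer next to Shh, had 11.3, 9.46, 6.86 and 9.49, or 0.552, 0.453, 0.447 and 0.467 against expectation. No enhancer window except that of the ZRS reached 1 in any sample, with or without isolated contacts, taken over the 4 En2/Cnpy1 windows together. The expected values differ in kind, however. The ZRS pairs lie 1064 to 1148 kb apart, beyond any pair within the Shh domain. Those of the other enhancers lie 224 to 728 kb apart, where pairs within the domain enter the expected value. What this adds to the higher value at the ZRS was not tested.

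Among the 24 single pairs of an En2/Cnpy1 window with one of these 6 windows, 1 was above expectation in all 4 samples. This was window 8, which holds the 3′ end of Cnpy1, with the ZRS window, at 2.08, 1.55, 1.04 and 1.35 in limb 1, limb 2, body and head, from 318, 671, 188 and 653 reads over 27 primer pairs. Window 10, with the first exon of Cnpy1, and the ZRS window gave 1.21, 0.917, 0.818 and 1.42. Window 7, with En2, and the ZRS window gave 0.912, 0.831, 0.436 and 0.548. Thus no sample was above 1 for En2 and the ZRS, but the primer of the only fragment overlapping En2 was unread in head and all but unread in limb 2. With SBE4, window 7 gave 0.347, 0.686, 0.322 and 0.393, all below 1. With SBE2 it gave 0.700, 0.508, 0.382 and 0.489, and with SBE3 0.381, 0.398, 0.342 and 0.361.

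Within the interval, window 8 had the highest observed over expected with the domain in every sample, at 0.668, 0.819, 0.802 and 0.623 in limb 1, limb 2, body and head. Window 7 was the lowest in every sample, at 0.380, 0.434, 0.333 and 0.361. Neither order held in both head libraries. In head library 1 window 10 was the lowest, at 0.404 beside 0.405 for window 7. In head library 2 window 9 was the highest, at 0.615 beside 0.595 for window 8. Both orders depended on the primers: without the 4 changing primers window 10 had the lowest mean, 0.463, below window 7 at 0.519, and with balanced totals window 9 had the highest, 0.665, and window 8 was at 0.575.

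The 29 fragments differed widely. The highest mean over the samples was that of fragment 73 (chr5:28559901-28566954), which holds a Cnpy1 exon, with an interaction frequency of 18.5, 19.9, 12.8 and 13.7 in limb 1, limb 2, body and head. The fragment with the first exon of Cnpy1, fragment 77, was at 2.73, 1.96, 1.14 and 2.03, from 175, 319, 114 and 382 reads, and came 25th of 29 by its mean. The fragment with the first exon of En2, fragment 47 (chr5:28491940-28496579), had 62, 0, 23 and 0 reads with the domain. Neither promoter fragment was thus among the well-read ones. Fragment 77 had few reads with any partner, 764, 1573, 1295 and 2097 in all, against 5223, 14633, 10833 and 13106 for fragment 73. The domain took 22.9%, 20.3%, 8.80% and 18.2% of the reads of fragment 77, close to 22.7%, 22.2%, 11.8% and 19.6% for fragment 73. For fragment 47 it took 8.23% in limb 1 and 2.98% in body. Fragments 45 and 46, the neighbours of fragment 47 upstream of En2, were well read in all samples, at 13.9, 16.2, 6.04 and 12.3 and at 12.5, 12.4, 4.76 and 11.8. Body was the lowest for both. The 14 fragments that overlap Cnpy1 averaged 7.89, 8.45, 4.41 and 8.79, and the 14 that overlap neither gene 6.08, 6.42, 3.62 and 6.27.

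**Figure D3:**
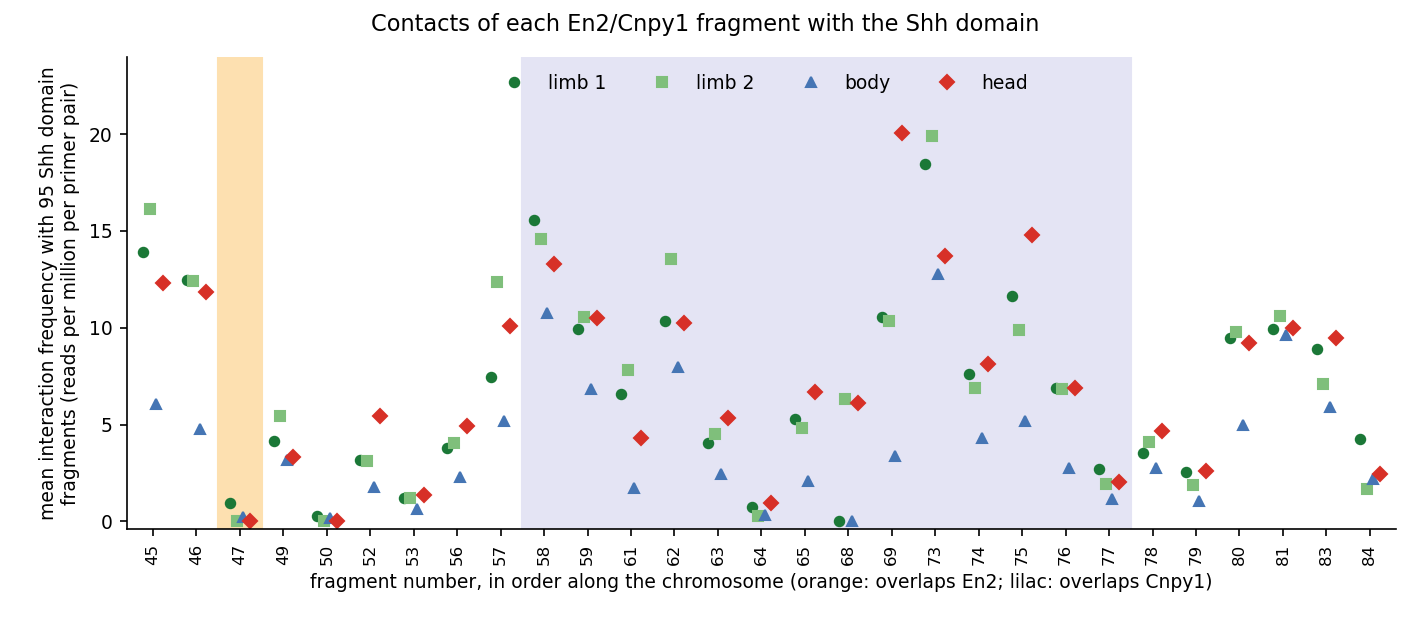
Mean interaction frequency of each of the 29 En2/Cnpy1 fragments with its 95 domain fragments, in order along the chromosome, with 1 symbol per sample. Fragments 47 and 50 lie at 0 in limb 2 and head and fragment 68 at 0 in limb 1 and body, and body is mostly below the other samples.

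The most-read of the 2755 pairs stood apart from all the others. Fragment 69 (chr5:28547730-28548357, in a Cnpy1 intron) and fragment 361 (chr5:29426352-29436153, in the gene desert, window 40) had 341, 922, 23 and 2488 reads in limb 1, limb 2, body and head, and 553 and 1935 in the head libraries. It was the highest member in all samples except body, where the highest had 75 reads. It was 1 of 8 isolated contacts of the region, pairs 84 kb or more apart that reached 100 reads and exceeded by 20 times or more every pair formed by the 2 closest primers on either side, in 2 libraries or more. Without these 8, window 40 fell from 1.17, 1.19, 0.585 and 1.73 against expectation to 0.679, 0.703, 0.560 and 0.629.

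The next most-read pairs were nearer to Shh. Of the 10 highest by mean interaction frequency, 6 were with window 17 and 8 were read in all 5 libraries. The fragment at the 3′ end of Cnpy1, fragment 58, with fragment 140 (chr5:28763979-28767078), just 3′ of Shh, had 71, 86, 75 and 108 reads. Fragment 46, next to En2, with fragment 147, which holds the Shh first exon, had 30, 105, 21 and 93 reads. The latter is the best-read contact between the surroundings of the En2 promoter and the Shh promoter, and it was present in all samples, with 47 and 46 reads in the head libraries. At the Lmbr1 end, fragment 79, upstream of Cnpy1, with an Lmbr1 intron fragment (chr5:29606038-29607875) had 37, 94, 7 and 158 reads.

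Contacts of En2 and Cnpy1 with the Shh domain were far below those inside the domain at equal separations. The ratio was 0.280 in limb 1, 0.313 in limb 2, 0.243 in body, and in head it was 0.274, over separations of 196 to 896 kb. It was below 1 in 4 of 4 samples, with an exact sign-flip permutation p of 0.125 (two-sided), the smallest that 4 samples allow. Against the other 12 windows on the same side of Shh, the ratio was 0.730, 0.676, 0.725 and 0.643, again below 1 in all 4 samples (exact permutation p = 0.125, the smallest possible). Head was the lowest of the 4, and both head libraries (0.645 and 0.640) were below limb and body.

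Nom1 and Mnx1 lie beyond the opposite end of the domain and served as a matched pair of outside genes. At equal separations En2 and Cnpy1 met the domain 1.03, 1.08 and 1.07 times as often as Nom1 and Mnx1 did in limb 1, limb 2 and body, and 0.860 times in head. The head libraries gave 0.842 and 0.878, both below the other 3 samples. On the log2 scale head was lower by 0.30 against an SD of 0.039 among the other 3, and the exact permutation p was 0.25, the smallest that 1 against 3 can give. The interaction frequency of Nom1 and Mnx1 with the domain was itself 6.81, 7.14, 4.03 and 8.33, highest in head, as was that of En2 and Cnpy1 with 6.78, 7.18, 3.88 and 7.27.

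As a background, primers of the interval were also paired with fragments around Usp22 on chromosome 11, in 159 pairs. The mean interaction frequency there was 4.25, 4.06, 0.256 and 7.84 in limb 1, limb 2, body and head, which put En2 and Cnpy1 with the Shh domain at 1.59, 1.77, 15.2 and 0.927 times the background. In limb and head the background rested on 1 pair, which held 390 of 457, 1080 of 1107 and 1917 of 2469 reads, whereas in body it held 7 of 43. With the most-read pair left out on each side the ratios were 10.5, 70.1, 17.9 and 3.86, and 13.6 and 2.26 in the 2 head libraries. Unread pairs were 96.2%, 95.6%, 87.4% and 79.2% of the background, against 43.2% to 58.7% of the members. Head, and its second library above all, had the most scattered background reads, and the part of this in the head values was not tested.

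**Figure D4:**
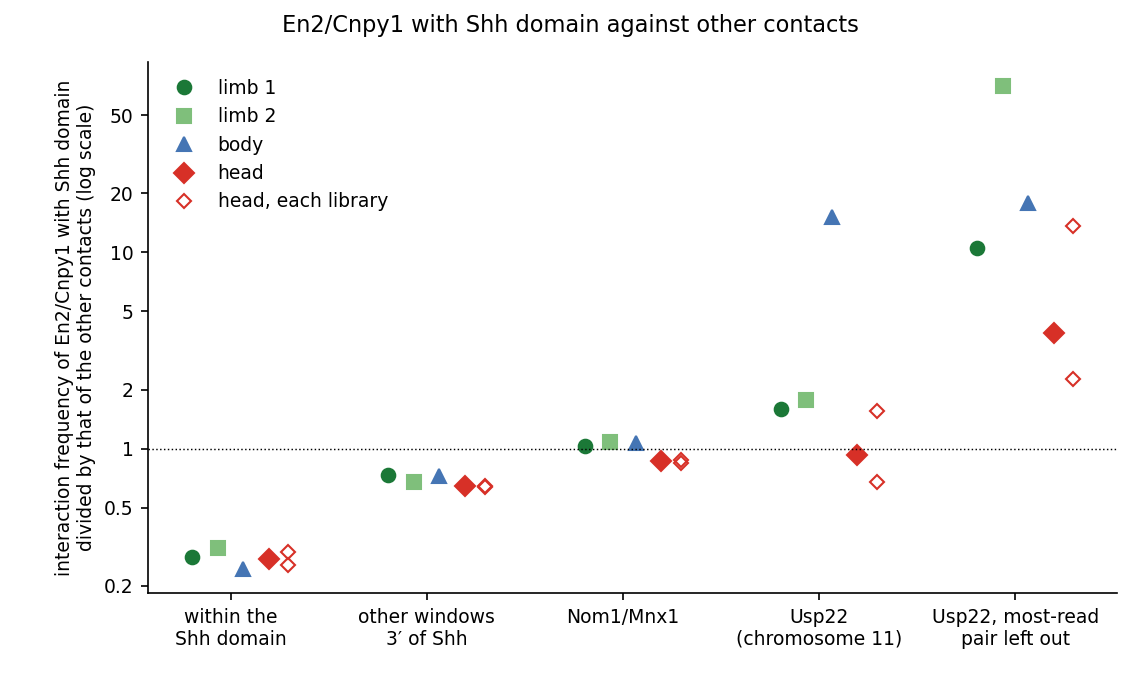
Interaction frequency of En2/Cnpy1 with the Shh domain divided by that of other contacts (log scale), at equal separations for the first 3 and overall for the Usp22 background, with 1 filled symbol per sample and open symbols for the 2 head libraries. Ratios are 0.243 to 0.313 against contacts within the domain and 0.860 to 1.08 against Nom1 and Mnx1, and the Usp22 ratio depends on the most-read pair.

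Head was tested against limb and body window pair by window pair with edgeR over the whole region. No window pair of 1881 passed an adjusted p of 0.05 (0%), and so none of the 132 members did. At an unadjusted p under 0.05, 4 members were higher in head and 4 lower, against 55 (2.92%) and 49 (2.6%) of all window pairs tested. The members' median log2 fold change was -0.04, beside -0.01 over all window pairs, and 64 of the 132 were above 0. With library totals in place of TMM scaling the medians were 0.09 and 0.15, so that the members' median changed sign with the scaling while staying close to that of all window pairs. The head was 1 sample, so its spread was taken to be that of limb and body.

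At Shh and the enhancers the 24 window pairs gave log2 fold changes of head over limb and body from -0.99 to 0.80, 10 above 0 and 14 below. Their standard errors ran from 0.39 to 0.72. Each SE of a fold change was worked out as its size divided by the square root of the edgeR F statistic. The lowest p was that of window 10, with the Cnpy1 first exon, and window 17, with Shh. Its interaction frequency was 15.0, 12.9 and 13.7 in limb 1, limb 2 and body, and 7.90 in head, with 7.63 and 8.20 in the head libraries. Head was below all others, but the edgeR fold change of -0.99 ± 0.42 (SE) had an adjusted p of 0.827. The 4 Shh pairs ran from -0.99 to -0.04 and the 4 SBE2 pairs from 0.06 to 0.31, and the smallest edgeR adjusted p of either set was 0.827. With library totals 1 Shh pair was above 0, and with an offset for separation 2 SBE2 pairs were below 0, so neither direction held under every scaling. The 4 SBE4 pairs ran from -0.68 to 0.55. At the ZRS, window 10 had a fold change of 0.80 ± 0.39 (SE; edgeR adjusted p = 0.903), and the other 3 windows ran from -0.31 to -0.04.

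**Figure D5:**
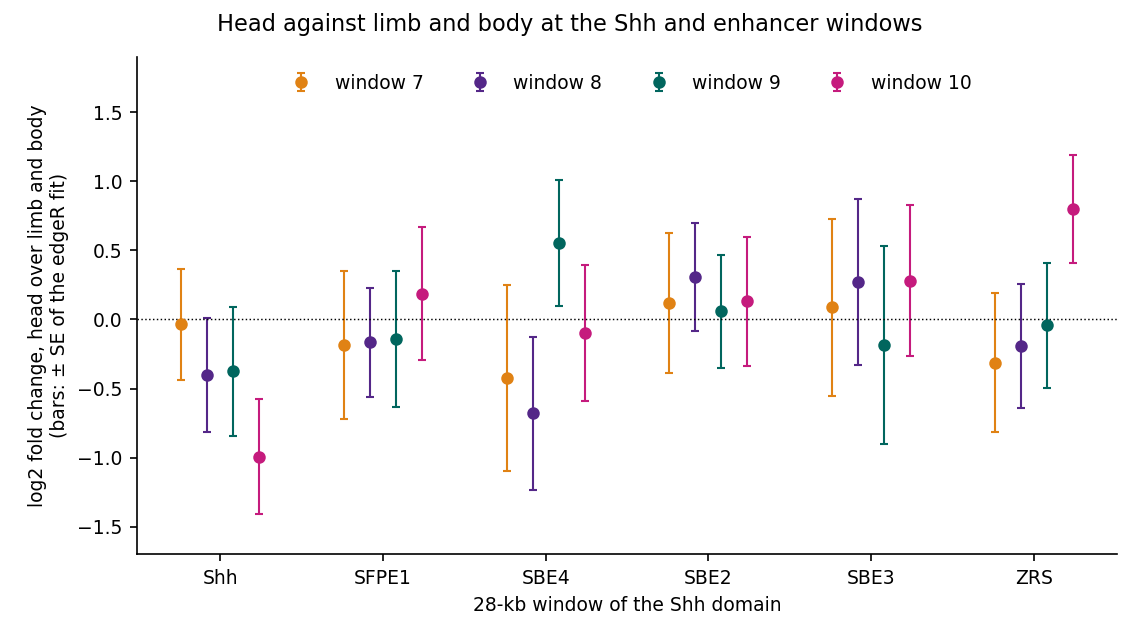
Log2 fold change of head over limb and body (edgeR). The 24 pairs join En2/Cnpy1 windows 7 to 10 with the windows of Shh and 5 enhancers. Bars are the SE, worked out as the size of the fold change divided by the square root of its F statistic. The 4 points at Shh lie below 0 and the 4 at SBE2 above it under this scaling (TMM), though not with library totals and with a separation offset respectively, and most bars cross 0.

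The pairs of windows with the lowest p for head are named here after their values were seen. Window 9, in Cnpy1, and window 41, in the gene desert, had 16, 58, 18 and 432 reads, and the edgeR log2 fold change was 2.98 ± 0.58 (SE), with an adjusted p of 0.168. Of the 432 head reads, 415 were in head library 1 and 17 in head library 2. Most came from fragment 68, which was unread in limb 1 and body with any partner: without the changing primers the counts were 16, 26, 18 and 92, and the log2 fold change was 1.16 with an edgeR adjusted p of 0.922.

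Window 7, with En2, and window 19, in the desert next to Shh, had 24, 118 and 33 reads in limb 1, limb 2 and body and 0 in both head libraries. The interaction frequency over the 11 primer pairs was 3.23, 6.26 and 2.84 (mean 4.11 ± 1.87, SD, n = 3) against 0 in head. A count of 0 sets no minimum fold here, since technical libraries of 1 sample differed as much. Window pair 8:49 had 73 reads in head library 1 and 0 in head library 2. The edgeR adjusted p was 0.259, and without the changing primers it was 0.367, with counts of 24, 118, 32 and 0.

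Limb was compared with body and head in the same way. None of 1874 window pairs, 131 of them members, passed an adjusted p of 0.05 with edgeR (0%). At an unadjusted p under 0.05, 4 members were higher in limb, against 1.23% of all window pairs, and 1 was lower, against 0.961%. The members' median log2 fold change was 0.15, beside -0.02 over all window pairs, with 87 of 131 above 0. With library totals these medians were 0.32 and 0.12. Over the 4 ZRS pairs the limb fold changes ran from -0.17 to 0.79, and the lowest p, for window 7 with the ZRS window, belonged to 0.79 ± 0.40 (SE), with an edgeR adjusted p of 0.989. The interaction frequency there was 7.68 and 7.54 in limb, against 2.81 in body and 5.23 in head.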

How the data were processed

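5C libraries from HindIII-cut chromatin were sequenced on an Ion PGM and turned by the authors into read counts per primer pair with a 5C transformation pipeline on Galaxy (mm9). The deposited counts are not normalised. Every primer pair is listed in all libraries, unread pairs included. Counts were divided by the library's total, averaged over the primer pairs of 28-kb window pairs (numbered from the first base of the region), and divided by the average at equal separation. Window pairs were tested with edgeR 4.0.16 (quasi-likelihood, TMM, filterByExpr, Benjamini-Hochberg adjustment over all window pairs) and, as an alternative, DESeq2 1.42.0, in R 4.3.3. The 2 head libraries were summed, and single values were compared by exact permutation over samples. Intervals cover counting error only: PCR reads are not independent molecules. Body and head have 1 sample each. Named were the 24 window pairs with Shh and enhancers, called window pairs, the highest domain windows and primer pairs, and the first-exon fragments. The members and lists were chosen with earlier results of these data known. Gene positions are those of GENCODE vM1. FISH data were not used here.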

Additional observations from a re-analysis of the deposited data

How the results depend on the processing

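There were 4 samples, head and body were unreplicated, and 43.2% (body) to 58.7% (limb 1) of the member pairs were unread. This limits every value of a single window pair, and the part of sequencing depth in it was not tested. Of the 101 alternative values computed for the main comparisons, 70 kept their direction, call or size, and the ratios to contacts within the domain, to the other windows 3′ of Shh and to Usp22 kept, as means over samples, their side of 1 in every alternative run. The observed over expected moved but stayed below 1. In limb, body and head it was 0.592, 0.596 and 0.547 with 14-kb windows, 0.613, 0.579 and 0.618 with balanced primer totals, 0.325, 0.347 and 0.254 with the median over primer pairs, 0.763, 0.692 and 0.691 with the median at each separation in place of the mean, and 0.579, 0.565 and 0.537 without the changing primers, an alternative chosen after seeing the data. With 56-kb windows it was 0.599 in body and 0.518 in head, on a grid shifted by 14 kb 0.573 in body, and without isolated contacts 0.594 in limb and 0.546 in head. Leaving out a limb replicate gave 0.510 to 0.560 in limb, and leaving out a head library 0.502 to 0.506 in head.

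Head minus limb and body turned from -0.026 to 0.016 with balanced primer totals, and the cause was not tested. The mean log2 ratio to Nom1 and Mnx1, 0.01, became -0.12 with 56-kb windows, -0.0035 with balanced totals, -0.014 with the median over primer pairs and -0.028 without isolated contacts, and 0.209 with 14-kb windows, 0.219 on the shifted grid and 0.116 without the changing primers, and ran from -0.025 to 0.017 when 1 library was left out. It is a value with no settled side of 0. Leaving out the most-read pair of members and of background, also chosen after seeing the data, raised the mean log2 ratio to Usp22 from 1.33 to 3.91.

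The count of members called in head, 0 with edgeR, was 2 with DESeq2 (window pairs 7:19 and 9:41), against 6 of all 1885 window pairs. It ran from 0 to 10 when 1 library was left out. Without limb replicate 1 it was 2, against 15 of all 1879, and without limb replicate 2 it was 0, against 1 of 1877. Without head library 1 it was 10, against 75 of all 1876, and without head library 2 it was 1, against 1 of 1877. The rise without head library 1 was thus not limited to the members. The fold change of window pair 9:41 was 3.75 without head library 2, and turned from 2.98 to -0.45 without head library 1. The adjusted p of window pair 7:19 was 0.0142 with DESeq2, 0.00243 without limb replicate 1 and 0.0454 without head library 1, and 0.212 to 0.618 in the other alternatives. No member was called in limb in any alternative. No paired analysis was possible because the labels give no numbers shared between tissues. The median over primer pairs and the balanced totals could not be applied to the Usp22 background, where most pairs are unread and primers were balanced within the Shh region.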

Other observations

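Within their own side of Shh, the 29 fragments of the En2/Cnpy1 interval kept most of their reads close by. Contacts among themselves took 31.7%, 35.5%, 50.3% and 30.0% of their reads within the region in limb 1, limb 2, body and head. The windows on the side of Insig1, a gene of sterol regulation, took 22.2%, 18.6%, 17.1% and 21.8%, and those of Rbm33, which encodes an RNA-binding protein, 15.5%, 15.3%, 14.9% and 15.5%. Body was higher than the other samples for contacts among themselves and lower for the Shh domain, and the share with Rbm33 was nearly the same in all 4. Beyond the Shh domain, windows 50 to 61, with Nom1, Mnx1 and Ube3c, took 8.86%, 9.06%, 5.89% and 10.6%. Per primer pair these farthest contacts were higher than those with the Shh domain in all 4 samples, at an interaction frequency of 7.001, 7.63, 4.90 and 8.81 against 6.78, 7.18, 3.88 and 7.27.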
